A study of Mus musculus with 4 samples.

Results

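Protein kinase C (PKC) is a family of serine/threonine kinases, and 8 of its genes were followed here in nuclei of excitatory and inhibitory neurons: Prkca, Prkcb, Prkcd, Prkce, Prkch, Prkcq, Prkci and Prkcz. They were taken by symbol from a table of 55487 genes, and all 8 symbols were found, each in 1 row. The excitatory group held 2 libraries and the inhibitory group 2 libraries, made from nuclei collected by fluorescence-activated sorting from adult wild-type mice, from the whole brain with its olfactory bulb removed, all labelled as 1 batch. No group carried a transgene or treatment by its labels, and neither the labels nor the methods used here state the sort markers, the number of animals or any pooling. Values are TPM, transcript abundances that the authors divided by transcript length and scaled to the same total in each library, so that levels of different genes can be set side by side.

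PKC isoforms fall into 3 classes by what switches them on. Classical isoforms respond to calcium and to diacylglycerol, the membrane lipid that phospholipase C releases when Gq-coupled receptors are active. The nPKC isoforms respond to diacylglycerol but not to calcium, and atypical isoforms respond to neither and are steered by partner proteins. In neurons, these kinases are known for tuning transmitter release, receptor traffic and excitability. Among the genes followed, Prkca and Prkcb are classical, Prkcd, Prkce, Prkch and Prkcq are nPKC, and Prkci and Prkcz are atypical.

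The encoded proteins were compared by sequence. The cysteine and histidine spacing of a C1 zinc finger was searched in the longest coding transcript of each gene in the GENCODE release M21 annotation. This fold holds diacylglycerol in classical and nPKC isoforms, while atypical isoforms do not respond to that lipid. The spacing was found 2 times in each of the 6 classical and nPKC isoforms and 1 time in each of the 2 atypical ones. The proteins ran from 592 residues (Prkcz) to 737 residues (Prkce). The closest relatives were Prkca with Prkcb (81.6% identical over 667 aligned residues), Prkci with Prkcz (73.9% over 583), Prkce with Prkch (66.1% over 676) and Prkcd with Prkcq (63.3% over 692).

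The starts of Prkca and Prkcd, a pair of members whose levels differed between the nuclei in opposite directions, are shown so that they can be compared letter by letter. Each stretch holds 250 bases before and 50 after a RefSeq transcription start (build GRCm38.p6), 5′ to 3′ on the strand of the gene. Capitals mark the GC box letters GGGCGG or CCGCCC, the site of Sp-family factors, and the letters TATAAA, searched on both strands. Of the 8 genes, 6 had a sequence in this RefSeq set. The Prkca start lies at chr11:108343839-108344138 on the minus strand, the first Prkcd start at chr14:30626159-30626458 and the second at chr14:30610261-30610560, both on the minus strand.
Prkca start: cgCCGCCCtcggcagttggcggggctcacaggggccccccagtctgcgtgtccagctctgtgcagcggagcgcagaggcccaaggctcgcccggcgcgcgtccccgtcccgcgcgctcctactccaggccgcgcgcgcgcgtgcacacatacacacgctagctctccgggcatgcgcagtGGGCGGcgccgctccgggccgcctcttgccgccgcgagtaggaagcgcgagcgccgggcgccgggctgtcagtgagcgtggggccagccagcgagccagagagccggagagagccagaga
Prkcd first start: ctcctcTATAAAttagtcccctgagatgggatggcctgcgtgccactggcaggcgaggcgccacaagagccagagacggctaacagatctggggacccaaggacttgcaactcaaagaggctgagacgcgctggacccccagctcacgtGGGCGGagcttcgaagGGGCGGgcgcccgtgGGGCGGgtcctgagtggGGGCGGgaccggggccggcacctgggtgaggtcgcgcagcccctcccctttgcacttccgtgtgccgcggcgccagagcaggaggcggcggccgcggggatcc
Prkcd second start: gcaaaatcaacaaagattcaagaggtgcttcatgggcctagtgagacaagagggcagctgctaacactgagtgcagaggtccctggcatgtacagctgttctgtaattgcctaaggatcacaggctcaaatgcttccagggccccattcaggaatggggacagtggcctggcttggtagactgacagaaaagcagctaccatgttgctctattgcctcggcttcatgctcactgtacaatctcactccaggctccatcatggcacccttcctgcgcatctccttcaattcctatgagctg
The Prkca window was 75.3% G and C with 42 CG pairs, and it held 2 GC boxes and no TATAAA. The first Prkcd window was 69.3% G and C with 26 CG pairs, 4 GC boxes and 1 TATAAA at its upstream end. The second Prkcd window was 51.3% G and C with 2 CG pairs and held neither motif. Over all 32851 windows of this length, the median was 52.7% G and C with 7 CG pairs, 35.66% held a GC box and 13.62% held TATAAA. The letters GCGTGGGCG, the consensus of the EGR1 factor that the study concerned, were in none of the 9 windows of the 6 genes, searched on both strands (0 matches in each), against 0.61% of all windows. A match or its lack is a description of these letters, and gene rows do not tell which start was used.

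All 8 isoforms were detected in all 4 libraries, and Prkcb led in each group. In excitatory nuclei the order of mean levels was Prkcb (316 TPM), Prkcz (116 TPM), Prkce (115 TPM), Prkca (66.1 TPM), Prkci (48.4 TPM), Prkcd (12.5 TPM), Prkch (2.63 TPM) and Prkcq (2.05 TPM). Among neighbours in that order, Prkcz and Prkce overlapped between libraries, as did Prkch and Prkcq, and the others did not. In inhibitory nuclei the order was Prkcb (267 TPM), Prkcz (126 TPM), Prkce (89.3 TPM), Prkcd (73.5 TPM), Prkci (53.3 TPM), Prkca (36.4 TPM), Prkch (22.9 TPM) and Prkcq (2.83 TPM). There, Prkce and Prkcd overlapped between libraries, and other neighbours did not. The mean of Prkcb lay above 99.3% of the 26055 tested genes in excitatory and above 99.2% in inhibitory nuclei, while that of Prkcq lay above 15.3% and 18.6%. Prkcd and Prkca traded places between the orders, with Prkca at rank 4 in excitatory and rank 6 in inhibitory nuclei, and Prkcd at rank 6 and rank 4.

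**Figure D1:**
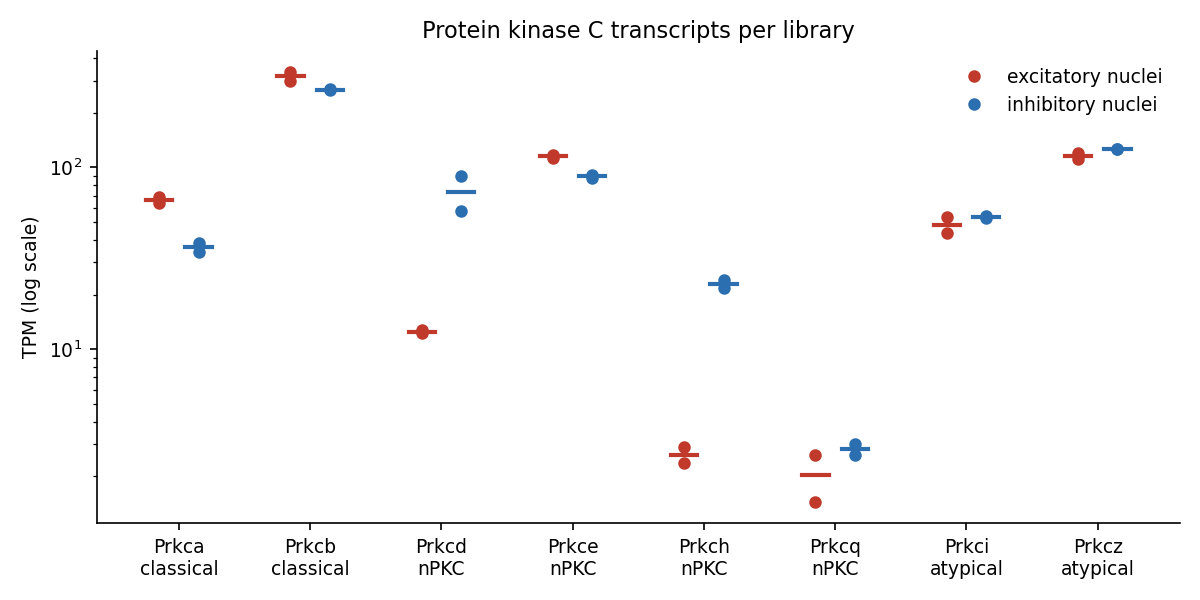
TPM (log axis) of each isoform in each library, excitatory nuclei in red on the left of each pair and inhibitory nuclei in blue on the right; points are libraries and bars are means of 2. Prkch stands at 2.63 against 22.9 TPM and Prkcd at 12.5 against 73.5 TPM, while Prkca stands at 66.1 against 36.4 TPM and the other isoforms lie closer together.

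The comparison asked which of these transcripts differed between excitatory and inhibitory neurons, in a study concerned with EGR1 binding and epigenetic regulation in neuron types. Prkcd and Prkch were higher in inhibitory nuclei and Prkca was higher in excitatory nuclei, while 5 isoforms did not pass the test. Differences were tested by limma on log2(TPM + 1) across the 26055 genes that reached 1 TPM in 2 or more libraries, and genes with a Benjamini-Hochberg adjusted p under 0.05 are called. By this rule 1 of the 8 isoforms was higher in excitatory nuclei, against 5.43% of tested genes, and 2 were higher in inhibitory nuclei, against 6.62%. With any 1 library left out, the fit called 0 genes in all, and these 3 isoforms kept their direction with adjusted p between 0.0558 and 0.102 by limma. The groups did not overlap for 7 of the 8 isoforms, against 56.2% of tested genes, and Prkcq is among the 7 only by 2.64025 TPM in an excitatory against 2.64094 TPM in an inhibitory library. The median log2 fold change, excitatory over inhibitory, was -0.13 over the isoforms and -0.07 over all tested genes. Log2 fold changes are given with standard errors and understate changes of low genes, since 1 TPM was added to each value. All 8 isoforms stood above 1 TPM in every library, so the filter on low values took none of them out. Nothing in the labels ties the replicates to different animals, so the p-values cover the spread among these samples, which may be technical. In bulk nuclei, fewer cells of a type that carries a transcript and less of that transcript per cell cannot be told apart.

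Among the classical isoforms, Prkca, a widely expressed kinase of many signalling pathways (ENSMUSG00000050965, chromosome 11, 107933387 to 108343928, minus strand, mm10), had 68.3 and 63.9 TPM in excitatory libraries, against 34.3 and 38.5 TPM in inhibitory libraries. Both excitatory libraries stood above both inhibitory ones. The mean was 66.1 ± 3.12 against 36.4 ± 2.91 TPM (SD, n = 2 each), a fold of 1.82. The log2 fold change was 0.85 ± 0.12 (limma, adjusted p = 0.0103). Its size was larger than that of 83.8% of tested genes.

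Prkcb, the classical isoform known for its abundance in forebrain (ENSMUSG00000052889, chromosome 7, 122288751 to 122634402, plus strand), had 299 and 333 TPM in excitatory libraries, against 265 and 269 TPM in inhibitory libraries. The libraries did not overlap between groups, yet the difference did not pass the test. Its log2 fold change was 0.24, with a 95% interval from -0.01 to 0.49 (limma, adjusted p = 0.188). Scaling the libraries by median ratios brought its adjusted p to 0.0494 by limma, and leaving out the variance trend brought it to 0.400.

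The nPKC isoforms went apart. Prkch, an isoform best known from epithelia and immune cells (ENSMUSG00000021108, chromosome 12, 73584796 to 73778185, plus strand), had 2.36 and 2.91 TPM in excitatory libraries, against 21.7 and 24.0 TPM in inhibitory libraries. As a log2 fold change this was the largest among the 8 isoforms, and in TPM it was smaller than those of Prkcd, Prkcb, Prkca and Prkce. The mean was 2.63 ± 0.383 against 22.9 ± 1.62 TPM (SD, n = 2 each), a ratio of 0.115 excitatory over inhibitory, or 8.68 inhibitory over excitatory. The log2 fold change was -2.72 ± 0.22 (limma, adjusted p = 0.00285). Its size was larger than that of 99.6% of tested genes.

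Prkcd, an isoform that is used as a marker of thalamic relay neurons and of a class of GABA neurons in the central amygdala (ENSMUSG00000021948, chromosome 14, 30595354 to 30626210, minus strand), had 12.7 and 12.2 TPM in excitatory libraries, against 57.3 and 89.6 TPM in inhibitory libraries. The groups stood far apart, and the inhibitory libraries also differed from each other. The mean was 12.5 ± 0.319 against 73.5 ± 22.9 TPM (SD, n = 2 each), a ratio of 0.170 excitatory over inhibitory, or 5.89 inhibitory over excitatory. The log2 fold change was -2.43 ± 0.22 (limma, adjusted p = 0.00338). It was -2.11 without inhibitory replicate 2, the library with the higher level, and -2.75 without inhibitory replicate 1.

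Prkce, an isoform of nerve terminals known in mice for its part in responses to pain and alcohol (ENSMUSG00000045038, chromosome 17, 86167785 to 86657919, plus strand), had 113 and 118 TPM in excitatory libraries, against 87.9 and 90.7 TPM in inhibitory libraries. All values in excitatory libraries lay above those in inhibitory ones. Its log2 fold change of 0.37 ± 0.10 missed the threshold (95% interval 0.13 to 0.60, limma, adjusted p = 0.0618). It passed with median ratio scaling (adjusted p = 0.0249) and with the replicate number as a block (adjusted p = 0.0288). It moved further from the threshold with no filter on low values (limma, adjusted p = 0.0930) and without the variance trend (adjusted p = 0.208).

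Prkcq, the isoform of T cell receptor signalling (ENSMUSG00000026778, chromosome 2, 11172108 to 11301222, plus strand), had 2.64 and 1.45 TPM in excitatory libraries, against 2.64 and 3.03 TPM in inhibitory libraries. It was the lowest isoform of each group. Its log2 fold change was -0.36, with a 95% interval from -1.15 to 0.43 (limma, adjusted p = 0.537), so a difference of the size seen for Prkca toward inhibitory nuclei lies inside that interval.

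Neither atypical isoform passed the test. Prkcz, whose gene also makes the brain form PKM-zeta from an internal start (ENSMUSG00000029053, chromosome 4, 155260129 to 155361361, minus strand), had 111 and 121 TPM in excitatory libraries, against 126 and 126 TPM in inhibitory libraries. Its log2 fold change was -0.12, with a 95% interval from -0.36 to 0.11 (limma, adjusted p = 0.473). The row of the gene sums over its transcripts, so the full-length kinase and PKM-zeta were not separated here.

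Prkci, which works in cell polarity with the Par3 and Par6 proteins (ENSMUSG00000037643, chromosome 3, 30995747 to 31052959, plus strand), had 43.6 and 53.2 TPM in excitatory libraries, against 54.1 and 52.4 TPM in inhibitory libraries. Its libraries overlapped between the groups. Its log2 fold change was -0.14, with a 95% interval from -0.47 to 0.19 (limma, adjusted p = 0.555).

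A processed pseudogene, Prkcz2, can share reads with Prkcz. It was listed at 3.53 and 5.94 TPM in excitatory libraries, against 3.38 and 1.35 TPM in inhibitory libraries, and how reads that match both were counted is not stated.

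**Figure D2:**
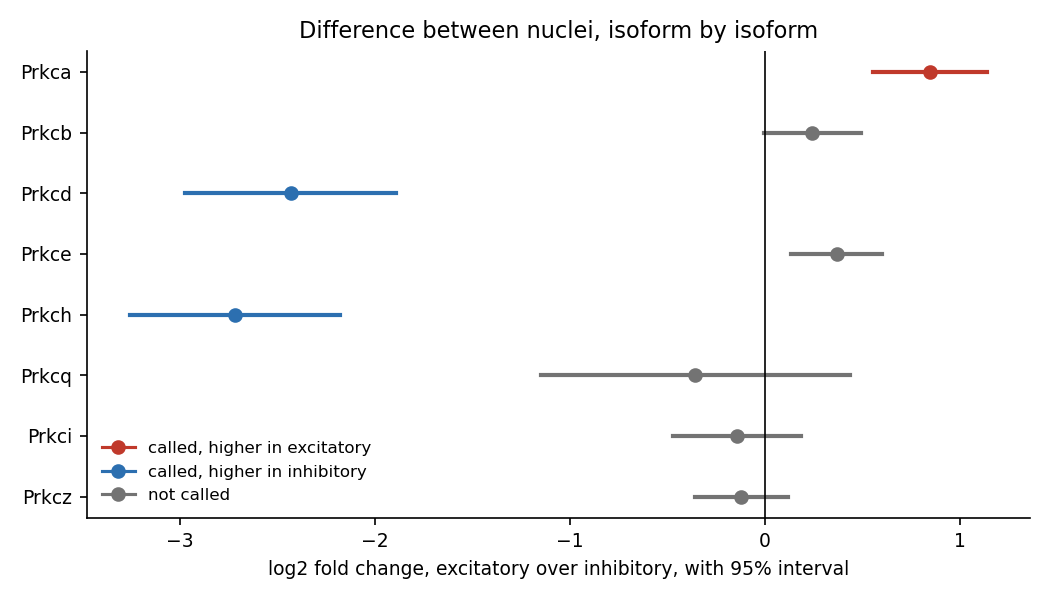
Log2 fold change, excitatory over inhibitory, of each isoform on the log2(TPM + 1) scale, with its 95% interval from limma; red and blue mark isoforms called higher in excitatory and in inhibitory nuclei, grey those not called. Prkch (-2.72) and Prkcd (-2.43) stand apart on the left, Prkca (0.85) on the right, and the interval of Prkce, though uncalled after adjustment, lies above 0.

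The isoforms were also read as sums and as shares of the family total. The 8 genes together summed to 654 and 705 TPM in excitatory libraries, against 649 and 694 TPM in inhibitory libraries (exact two-sided permutation test, p = 0.667). The classical pair made up 56.3% ± 0.0386 of this sum in excitatory and 45.2% ± 1.20 in inhibitory nuclei. The nPKC isoforms made up 19.5% ± 0.701 in excitatory and 28.0% ± 2.67 in inhibitory nuclei. Atypical isoforms took 24.2% ± 0.663 in excitatory and 26.8% ± 1.46 in inhibitory nuclei (SD, n = 2 each).

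By single gene, the share of Prkcb was 46.5% against 39.8% and that of Prkca 9.76% against 5.42%, excitatory against inhibitory. The share of Prkcd was 1.84% against 10.9%, and that of Prkch 0.387% against 3.40%. Within the nPKC class, Prkce took 87.1% of the TPM in excitatory and 47.8% in inhibitory nuclei, while Prkcd took 9.41% in excitatory and 38.5% in inhibitory nuclei. In summed level, the classical pair stood at 382 ± 20.9 against 303 ± 6.21 TPM and the nPKC class at 133 ± 2.38 against 188 ± 26.7 TPM. For each of these class sums and shares and for these gene shares the groups did not overlap, which gives an exact two-sided permutation p = 0.333, the smallest that 2 against 2 libraries allow (adjusted p = 0.372 over 19 quantities). These tests therefore could not pass a threshold of 0.05. The nPKC difference of -55.9 TPM, excitatory minus inhibitory, was -37.0 TPM without inhibitory replicate 2, and the atypical difference of -15.3 TPM was -5.82 TPM without excitatory replicate 1, -24.7 TPM without excitatory replicate 2 and -6.43 TPM with median ratio scaling.

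**Figure D3:**
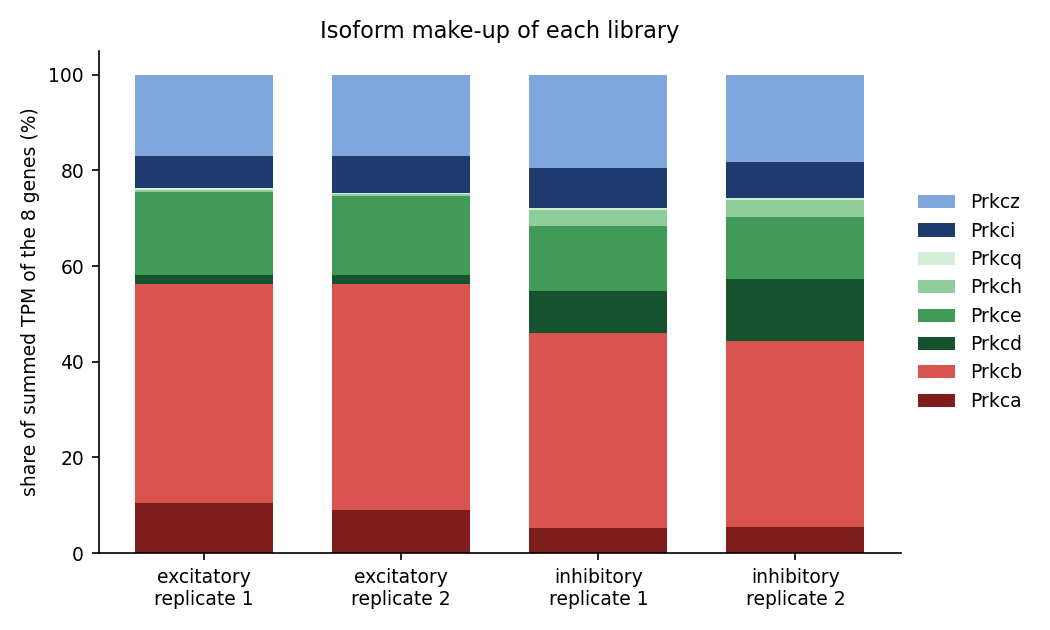
Share of each isoform in the summed TPM of the 8 genes, in percent, for each of the 4 libraries, excitatory on the left and inhibitory on the right; reds are classical, greens nPKC and blues atypical. The band of Prkcd is 1.84% of the excitatory and 10.9% of the inhibitory sum on average, and that of Prkca 9.76% and 5.42%.

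Close relatives were set against each other library by library, in 4 pairs. Prkce stood 47.9 and 40.5 times as high as Prkch in excitatory libraries, against 4.05 and 3.78 times in inhibitory libraries. The log2 ratio of these 2 genes, with 1 TPM added to each, thus differed by 3.08 between the groups. Prkcd stood 4.81 and 8.42 times as high as Prkcq in excitatory libraries, against 21.7 and 29.6 times in inhibitory libraries, a difference of -2.07 in log2 ratio.

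Prkca stood at 0.228 and 0.192 of Prkcb in excitatory libraries, against 0.130 and 0.143 in inhibitory libraries, a difference of 0.60. In these 3 pairs the libraries did not overlap between groups (exact two-sided permutation p = 0.333, the smallest possible, adjusted p = 0.444 over the 4 pairs). For Prkci over Prkcz, the ratio was 0.392 and 0.442 in excitatory libraries, against 0.428 and 0.415 in inhibitory libraries, and the groups overlapped (exact permutation p = 1.0).

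Other annotated genes overlap the long PKC genes, and their rows were read beside them. In GENCODE M21, Prkcb is overlapped by 8 such genes, 7 on its own strand, and their log2 fold changes ran from 0.06 to 0.41. Of these 8, limma called 0, against 12.0% of all tested genes in either direction, so 0 calls does not set them apart. Prkce is overlapped by 3, of which AC154542.1, on the same strand, shares 472 exon bases with it and had 60.2 and 70.6 TPM in excitatory libraries, against 41.4 and 48.0 TPM in inhibitory libraries. Reads in those bases could be counted for either row, so the level of Prkce is uncertain to that extent. Prkca is overlapped by 4, all on the opposite strand. Among them the antisense gene Gm11655 was called higher in excitatory nuclei, as Prkca was, with 32.2 and 36.7 TPM in excitatory libraries, against 18.4 and 11.2 TPM in inhibitory libraries (log2 fold change 1.20, limma, adjusted p = 0.0301). Gm11655 shares 0 exon bases with Prkca, and Apoh shares 30. The library kit keeps strand, but no source used here says whether counting did. No annotated gene overlaps Prkcd or Prkch (0 each).

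The sort was checked against marker lists, and markers of several neuron types differed, as Prkca, Prkcd and Prkch did. Of excitatory neuron markers, 8 of 8 tested were higher in excitatory nuclei, with Slc17a7, the vesicular glutamate transporter of cortex, at 365 and 367 TPM in excitatory libraries, against 60.2 and 52.2 TPM in inhibitory libraries. Of inhibitory markers, 9 of 9 tested were higher in inhibitory nuclei, with Gad1, a GABA-producing enzyme, at 45.0 and 38.1 TPM in excitatory libraries, against 226 and 207 TPM in inhibitory libraries. The thalamic list, which does not hold Prkcd, had 6 of 9 tested genes called toward inhibitory nuclei and summed to 111 to 135 TPM in excitatory and 309 to 345 TPM in inhibitory libraries. Slc17a6, the glutamate transporter typical of thalamus, stood at 22.4 and 20.3 TPM in excitatory libraries, against 88.0 and 78.4 TPM in inhibitory libraries. The Purkinje list had 9 of 10 genes called toward inhibitory nuclei and summed to 454 to 462 TPM in excitatory and 944 to 1011 TPM in inhibitory libraries. The striatal list had 8 of 10 so called and summed to 478 to 517 TPM in excitatory and 1362 to 1431 TPM in inhibitory libraries. Over all tested genes, 5.43% were called toward excitatory and 6.62% toward inhibitory nuclei. No gene of any marker list was at 0 in all libraries. The part of these neuron types in the differences of Prkcd and Prkch was not tested.

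Markers of non-neuronal cells gave no calls. Among 8 microglia, 8 astrocyte and 8 oligodendrocyte markers tested, limma called 0 in each list, and 1, 1 and 0 had an unadjusted p under 0.05. Among all 26055 tested genes, 3062 toward excitatory and 4194 toward inhibitory nuclei had an unadjusted p under 0.05 by limma. Of all tested genes 12.0% were called in either direction, so 0 calls in a list of 8 does not set that list apart. The microglia list summed to 66.0 to 69.2 TPM in excitatory and 77.2 to 89.9 TPM in inhibitory libraries, the astrocyte list to 108 to 142 against 120 to 149 TPM and the oligodendrocyte list to 368 to 446 against 280 to 391 TPM. Endothelial markers summed to 7.32 to 8.65 TPM in excitatory and 5.52 to 6.51 TPM in inhibitory libraries, and 1 of 8 passed the filter on low values.

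**Figure D4:**
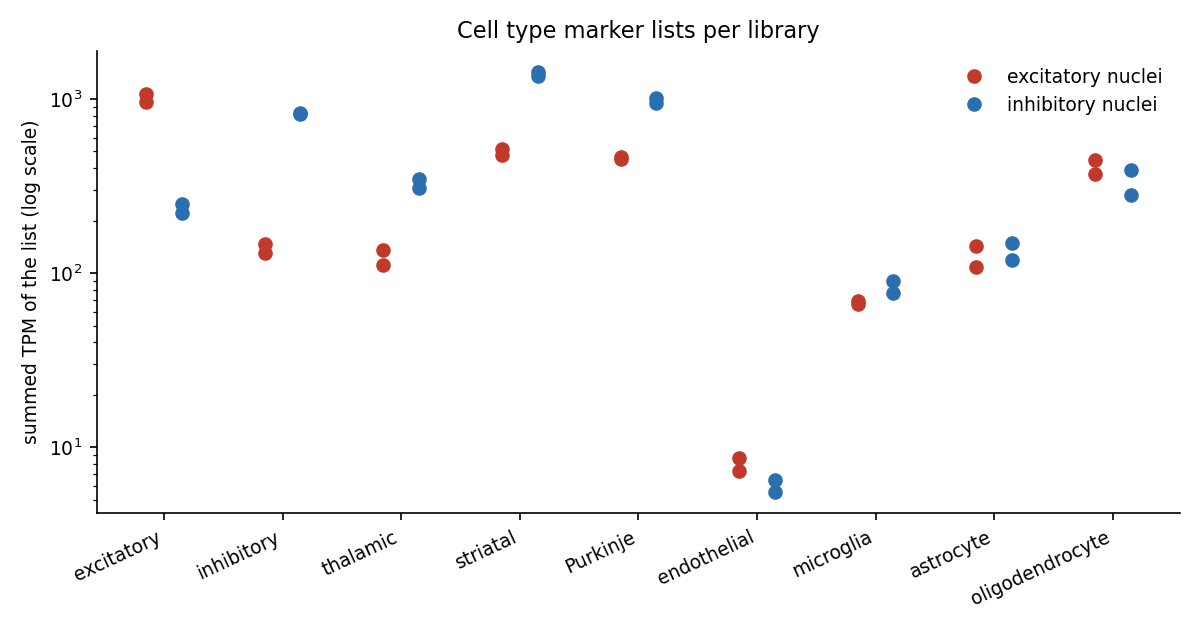
Summed TPM (log axis) of each cell type marker list in each library, excitatory nuclei in red on the left of each pair and inhibitory nuclei in blue on the right. The inhibitory, thalamic, striatal and Purkinje lists stand higher in inhibitory libraries, and so does the microglia list by less. The endothelial list is the lowest, at 5.52 to 8.65 TPM.

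Genes that act around the kinases were read from 6 lists of 78 genes, of which 77 were tested, 7 were called toward excitatory nuclei (9.09%, against 5.43% of all tested genes) and 8 toward inhibitory nuclei (10.4%, against 6.62%). Their counts toward excitatory nuclei ran from 3 without the trend to 14 with median ratio scaling, and no call was left without any 1 library. Over all tested genes, the counts toward excitatory nuclei also moved, from 1414 to 1007 without the trend and to 1796 with median ratio scaling. Gq subunits drive and phospholipases C carry out the release of diacylglycerol. Of 16 such genes 2 were called, both higher in inhibitory nuclei, where 6.62% of all tested genes were. With median ratio scaling and with the replicate block, 2 more of this list were called toward excitatory nuclei, with the filter of at least 5 TPM 1 more was, and without a filter the count was 1 toward inhibitory nuclei. Plcb4, a phospholipase C driven by Gq, stood at 80.4 and 84.9 TPM in excitatory libraries, against 165 and 167 TPM in inhibitory libraries (ratio of means 0.497, limma, adjusted p = 0.00374). Plcb3, its relative, stood at a mean of 5.22 ± 1.73 TPM in excitatory and 16.3 ± 2.60 TPM in inhibitory libraries (SD, n = 2 each). Each of these phospholipases had no overlap between groups, and the list's median log2 fold change was -0.08.

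Of 12 genes that consume diacylglycerol, 1 was called, against 12.0% of all tested genes in either direction. With median ratio scaling 3 were called toward excitatory nuclei and 1 toward inhibitory nuclei, and with the replicate block 1 and 2. Dgkb, a diacylglycerol kinase abundant in striatum, stood at 67.3 and 68.7 TPM in excitatory libraries, against 109 and 114 TPM in inhibitory libraries (log2 fold change -0.71, limma, adjusted p = 0.00949). The median of this list was 0.05.

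The 9 listed genes of the Munc13, RasGRP and chimaerin families, whose proteins hold a C1 domain, split evenly. Of these, 3 were called toward each group and 3 were uncalled, against 5.43% of all tested genes called toward excitatory and 6.62% toward inhibitory nuclei. Rasgrp2, a guanine nucleotide exchange factor for Rap1, stood at 9.81 and 15.8 TPM in excitatory libraries, against 78.1 and 113 TPM in inhibitory libraries. Unc13c, the Munc13 vesicle priming factor of cerebellum, stood at 13.9 and 15.0 TPM in excitatory libraries, against 53.2 and 61.4 TPM in inhibitory libraries. Both stood far lower in excitatory nuclei, with log2 fold changes of -2.82 and -1.92.

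On the other side, Unc13b, another Munc13 priming factor, stood at 217 and 240.5 TPM in excitatory libraries, against 78.4 and 93.5 TPM in inhibitory libraries. Rasgrp1, a Ras exchange factor, stood at 121 and 134 TPM in excitatory libraries, against 73.1 and 70.6 TPM in inhibitory libraries. The Rac regulators of the chimaerin family also went apart, with Chn1 at 0.80 and Chn2 at -0.96 in log2 fold change, both called and named after their values were seen. The called relatives within the Munc13, RasGRP and chimaerin families differed in opposite directions. Other relatives, Unc13a (log2 fold change 0.38), Rasgrp3 (-0.21) and Rasgrp4 (0.44), were not called and are named after their values were seen.

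Of 19 scaffolds, partners and phosphatases, 2 were called, both higher in inhibitory nuclei, against 6.62% of all tested genes. Pard3, the polarity scaffold that binds the atypical isoforms, stood at 27.6 and 30.8 TPM in excitatory libraries, against 81.8 and 78.7 TPM in inhibitory libraries (log2 fold change -1.43, limma, adjusted p = 0.00285). Its kinase partners Prkci and Prkcz were not called. Pdlim5, a PDZ and LIM domain adaptor that binds PKC, stood at 5.29 and 5.15 TPM in excitatory libraries, against 15.3 and 13.0 TPM in inhibitory libraries.

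Of 15 substrates, 4 were called, all higher in excitatory nuclei, against 5.43% of all tested genes. That count was 1 without the trend, 2 without the filter and 6 with median ratio scaling or with the replicate block, and the block also called 1 toward inhibitory nuclei. Nrgn, the calmodulin-binding substrate neurogranin of forebrain dendrites, stood at 119.5 and 121 TPM in excitatory libraries, against 63.9 and 51.3 TPM in inhibitory libraries (log2 fold change 1.06, limma, adjusted p = 0.00703). Rgs7, a regulator of G protein signalling, followed at 0.66. Ppp1r1a (0.59), an inhibitor of protein phosphatase, and Syt1 (0.47), the calcium sensor of synaptic vesicles, were the other two and are named after their values were seen. Marcks and Gap43, classic PKC substrates also named after their values were seen, were not called, with log2 fold changes of -0.13 and -0.20. Of the 6 tested kinases related to PKC, limma called 0, where 12.0% of all tested genes were called in either direction. A list of 6 is too short to set 0 calls apart from that share. Of the 6, 0 had an unadjusted p under 0.05 by limma, where 3062 toward excitatory and 4194 toward inhibitory nuclei did among all 26055 tested genes.

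**Figure D5:**
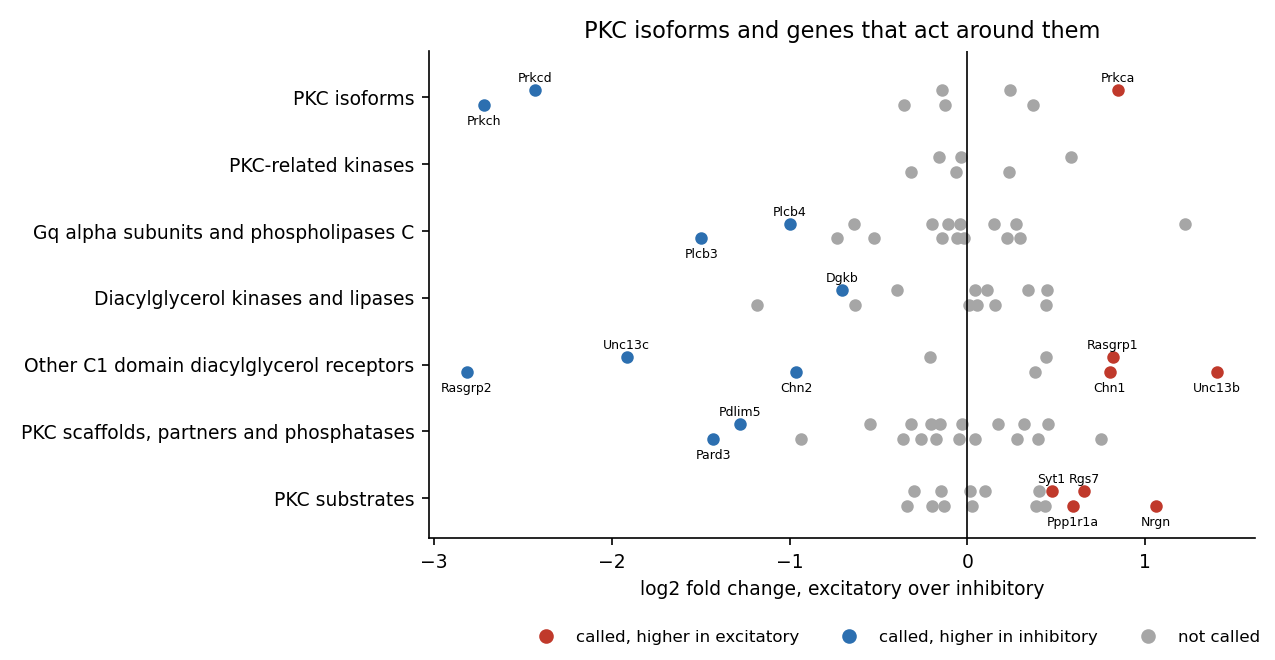
Log2 fold change, excitatory over inhibitory, of the PKC isoforms (top) and of the genes of 6 lists around them; each point is a gene, red and blue mark genes called higher in excitatory and inhibitory nuclei, grey those not called, and vertical offsets within a row carry no value. Prkch, Prkcd and Rasgrp2 lie farthest to the left, at -2.72, -2.43 and -2.82.

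Genes with the most similar pattern were sought for the 3 called isoforms by Euclidean distance between mean-centred log2(TPM + 1) values over the 4 libraries. The search covered 12283 tested genes with a mean of at least 5 TPM. Genes whose symbol marks a predicted gene or clone (Gm with digits, Rik or an identifier) were left out, so closer ones among them would not appear. For Prkca these were Sorbs2os (distance 0.05) and Ccsap (0.06), for Prkcd Gulp1 (0.09) and Rassf4 (0.18), and for Prkch Baiap3 (0.09) and Glra1 (0.17). Gulp1 stood at 1.60 and 1.43 TPM in excitatory libraries, against 10.6 and 15.6 TPM in inhibitory libraries, with the higher value in replicate 2 as for Prkcd. Baiap3 stood at 10.2 and 12.4 TPM in excitatory libraries, against 70.9 and 84.5 TPM in inhibitory libraries. With 4 libraries in 2 groups, many genes share such a pattern.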

How the data were processed

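RNA of sorted nuclei was sequenced in 2 excitatory and 2 inhibitory libraries after depletion of ribosomal RNA, per the labels' protocols. The authors deposited 1 table of TPM values, 1 column per library; each column summed to between 999833 and 999891. StringTie 2.2.1, HISAT2 2.2.1, fastp 0.23.4 and Bowtie2 2.3.5, and the build mm10, are named in the submitters' processing notes. No source used here gives their roles, the annotation or the use of strand. TPM keeps no depth, so depth is unknown and no counting interval was computed. Groups and replicates came from sample titles.

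Values were taken as log2(TPM + 1) for 26055 genes that reached 1 TPM in 2 or more libraries and tested by limma 3.58.1 in R 4.3.3 (variance trend, 2 residual degrees of freedom, prior worth 4.04, two-sided, Benjamini-Hochberg over all tested genes), after a test on simulated data. Intervals use the same fit. A fold is a ratio of mean TPM. Single sums, shares and ratios were compared by exact permutation in scipy 1.17.1. Positions, overlaps and coding sequences came from GENCODE M21 (99.6% of tested identifiers matched), start sequences from RefSeq, and alignments from Biopython 1.88.

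The members and lists were chosen with earlier results of these data known. Named from each pathway list were the 2 called genes of smallest p in each direction, from each marker list genes among the 2 of highest mean TPM, and for each called isoform its 2 nearest genes; others are said to be named after their values were seen. Figures were drawn with matplotlib 3.10.9.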

Additional observations from a re-analysis of the deposited data

How the results depend on the processing

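The calls of Prkca, Prkcd and Prkch held in each of the 6 alternatives that kept all 4 libraries: a pseudocount of 0.1, no filter on low values, a filter of at least 5 TPM, median ratio scaling, no trend in the prior and the replicate block. Their highest adjusted p there was 0.0472, 0.0262 and 0.0212. With any 1 library left out, 1 residual degree of freedom was left and limma made 0 calls among all genes (2053 to 2652 toward excitatory and 2735 to 3759 toward inhibitory nuclei had an unadjusted p under 0.05), so the counts of isoforms, list genes and all genes ranged from 0 to 0 in each direction. The adjusted p then ran from 0.0807 to 0.102 for Prkca, 0.0558 to 0.0750 for Prkcd and 0.0631 to 0.0722 for Prkch, with log2 fold changes from 0.77 to 0.92, -2.75 to -2.11 and -2.83 to -2.61. In these fits 2 isoforms toward inhibitory and 1 to 3 toward excitatory had an unadjusted p under 0.05, and the lone library of a group is assumed to vary like the others. No isoform changed direction in any alternative; Prkcq was not tested with the filter of at least 5 TPM.

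Without the filter, 666 genes were called higher in excitatory and 740 in inhibitory nuclei. Median ratio scaling called 3 isoforms higher in excitatory nuclei and 14 list genes. Over all tested genes that scaling called 1796 toward excitatory and 1566 toward inhibitory nuclei, against 1414 and 1725 in the main fit. It moved the classical difference to 96.4 TPM, against 79.1 TPM as reported, and the atypical one to -6.43 TPM, against -15.3 TPM. With 1 library left out, the classical difference ran from 64.4 to 93.9 TPM, the nPKC one from -74.8 to -37.0 TPM and the atypical one from -24.7 to -5.82 TPM. Without the trend, 3 list genes were called higher in excitatory nuclei, and 1007 genes were over all tested genes. A pseudocount of 0.1 moved the difference in the log2 ratio of Prkce over Prkch to 3.44. Replicates shared only a number (deviations of same-numbered libraries correlated at 0.0957 across genes); with that number as a block, 2 isoforms and 13 list genes were called higher in excitatory nuclei, and over all genes 1946 were called higher in excitatory and 2382 in inhibitory nuclei. The causes were not tested. The unknown depth limits what can be said of Prkcq, near 2 TPM.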
